A study of Mus musculus with 14 samples.

Results

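Olfactory receptor genes with detected reads in full-grown mouse oocytes were chosen as the genes whose symbol begins with Olfr and a digit and whose transcript had 10 or more reads summed over 14 RNA-seq libraries. Of the 1108 olfactory receptor genes in the count table, 210 (19.0%) met this limit, 302 had 1 to 9 reads and 596 had no read. Over all 20638 genes of the table, 83.3% had 10 or more reads. The members were thus selected on their reads summed over all libraries, mutant and control, and their number is a description.

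Olfactory receptors are the largest family of G protein-coupled receptors in the mouse. Each olfactory sensory neuron of the nose normally expresses a single receptor gene from a single allele, and the odorant signal then runs through the G protein subunit Gnal (Golf), the adenylyl cyclase Adcy3 and a cyclic nucleotide-gated channel. The genes lie in clusters on many chromosomes, they typically have an intronless coding region, and neighbours in a cluster are often close copies of each other. An oocyte is not a cell type in which these receptors have an established role.

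The libraries were made from pools of 20 full-grown, germinal vesicle-intact oocytes from females aged 4 to 6 weeks, collected 48 h after an injection of 5 IU of the hormone eCG. Ago2 encodes the Argonaute protein that cleaves targets of small interfering RNAs, and Dicer1 encodes the enzyme that makes small RNAs from double-stranded precursors. The groups were Ago2 fl/fl (floxed on both alleles, labelled wild-type, n = 3), Ago2 ADH (1 floxed allele deleted by Zp3-Cre and 1 allele with the catalytic motif changed from DDH to ADH, n = 3), Ago2 null (from the same crosses, n = 2), Dicer WT (n = 3) and Dicer KO (deleted for Dicer in the oocyte, n = 3). Zp3-Cre acts in growing oocytes, and Ago2 ADH oocytes had a single remaining Ago2 allele. Each pool held oocytes of 3 or 4 animals of a genotype, and the replicates are separate collections.

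The libraries held 29380403 to 58285057 counts on transcripts, so 3 counts, taken as the limit of detection, corresponded to 0.0515 to 0.102 CPM, the read count scaled to library size. Ago2 had 1258 to 1509 reads in Ago2 fl/fl, 535 to 753 in Ago2 ADH and 278 to 401 in Ago2 null libraries. Dicer1 reads were higher in Dicer KO (51298 to 59759) than in Dicer WT (28986 to 32662), and since these are counts over the whole transcript they do not check a deletion of part of it. All 11 oocyte markers, such as the zona pellucida gene Zp3, had 10 or more reads in every library. The 6 olfactory sensory neuron markers summed to 11.3 to 11.6 CPM in Ago2 fl/fl, 13.2 to 14.7 in Ago2 ADH, 11.9 to 14.1 in Ago2 null, 7.76 to 9.56 in Dicer WT and 9.22 to 11.9 in Dicer KO. Of these, Omp had 0 to 9 reads per library, while Adcy3 had 160 to 482, Cnga2 56 to 205 and Gnal 47 to 121. Among cells of other tissues, the 5 measured blood and immune markers summed to 0.174 CPM or less. Summed granulosa and cumulus markers were 76.6 to 83.5 CPM in Ago2 fl/fl, 62.2 to 69.2 in Ago2 ADH, 56.7 to 59.7 in Ago2 null, 94.8 to 102 in Dicer WT and 80.3 to 83.1 in Dicer KO. Most of these reads were of Cyp19a1 and Nr5a2, while Foxl2 had 0 to 7 and Amh 0 to 12 reads per library. The list was mixed in direction: Cyp19a1 had 1607 to 2103 reads in Ago2 fl/fl and 1068 to 1285 in Ago2 ADH, and Inha had 22 to 54 and 58 to 88. The 4 theca markers summed to 1.57 to 2.56 CPM in Ago2 fl/fl, 5.13 to 7.89 in Ago2 ADH, 3.43 to 4.81 in Ago2 null, 1.43 to 2.09 in Dicer WT and 2.23 to 3.8 in Dicer KO, and in Ago2 ADH most of these reads were of the steroidogenic enzyme Hsd3b1. The part of these cells in the results was not tested.

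**Figure D1:**
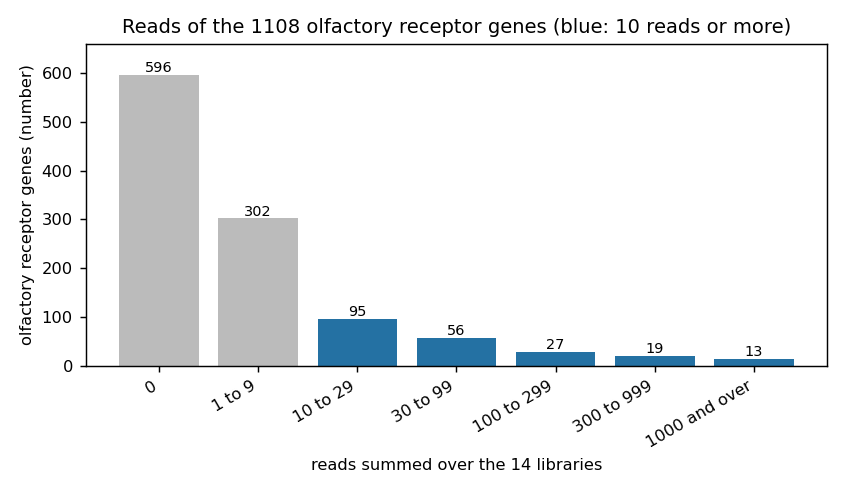
Number of olfactory receptor genes (vertical axis) by their reads summed over the 14 libraries (horizontal axis). Grey bars are the 596 genes without a read and the 302 with 1 to 9 reads, and blue bars are the 210 genes with 10 reads or more, whose median was 38.

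Near copies bear on how these genes can be counted, and the starts of 2 pairs of coding sequences are shown because each pair holds a member that changed and a close relative. Olfr1173 (chr2:88274109-88275047, GRCm38, minus strand) is a single coding exon of 936 bases before its stop codon and is 96.9% identical to Olfr1168, 89.2 kb away on the plus strand. Olfr1197 (chr2:88728653-88729597, minus strand) is 97.0% identical to Olfr1196 and 89.5% identical to Olfr1200. Below are the first 120 bases of the coding strands from the reference annotation, at chr2:88274928-88275047 for Olfr1173, chr2:88184879-88184998 for Olfr1168, chr2:88729478-88729597 for Olfr1197 and chr2:88768194-88768313 for Olfr1200, with capitals at the bases that differ within a pair.
Olfr1173: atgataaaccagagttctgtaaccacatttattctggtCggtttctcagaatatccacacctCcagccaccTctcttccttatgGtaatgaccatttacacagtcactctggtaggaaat
Olfr1168: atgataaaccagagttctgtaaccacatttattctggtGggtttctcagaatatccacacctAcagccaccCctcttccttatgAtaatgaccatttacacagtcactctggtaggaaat
Olfr1197: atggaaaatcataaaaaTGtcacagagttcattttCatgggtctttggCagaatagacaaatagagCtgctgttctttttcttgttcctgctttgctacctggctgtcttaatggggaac
Olfr1200: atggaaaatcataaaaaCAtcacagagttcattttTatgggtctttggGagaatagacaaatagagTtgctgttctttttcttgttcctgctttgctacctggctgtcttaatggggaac

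In these 120 bases Olfr1173 and Olfr1168 differed at 4 positions, and over the whole coding sequence by 29 edits. Of all 36-base words of the Olfr1173 coding sequence, 64.2% occurred in no other annotated transcript, and of the 50-base words 76.4%, so most reads from it could be told from its copy. For Olfr1197 these shares were 37.0% and 48.6%. Over all members, 100 of 210 had 90% or more of their 36-base words to themselves and 122 had 90% or more of their 50-base words. No pair of members had the same 14 counts. For 119 members, Olfr1173 and Olfr1197 among them, the RefSeq gene in the reference annotation ends with the coding sequence, whereas the longest annotated transcript of Olfr1173 is 5363 bases. If the models used for counting had the same ends, reads outside the coding region were not counted for these genes. The authors' own models were not examined. Counting ignored strand, so antisense reads are included.

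Olfr1173 had at most 1 read in any control library and was present in all mutant libraries. The 3 Ago2 fl/fl libraries had 0, 1 and 0 reads and the 3 Dicer WT libraries had 0, 0 and 0. The Ago2 ADH libraries had 352, 393 and 336 reads, the Ago2 null libraries 426 and 344, and the Dicer KO libraries 217, 174 and 305. The groups were thus fully separated, and at 7.15 ± 0.657 CPM in Ago2 ADH (SD, n = 3), 7.07 ± 0.78 in Ago2 null (SD, n = 2) and 7.27 ± 1.27 in Dicer KO (SD, n = 3) the mutant levels lay within their spread of each other.

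Against the single control read, Olfr1173 was 1200 times higher in Ago2 ADH than in Ago2 fl/fl, with an exact 95% counting interval of 215 to 47500, and the ratio for Ago2 null was also 1200 (interval 215 to 47400). In Dicer KO it was at least 297-fold higher than in Dicer WT, taking 3 counts over the WT group as the floor. These intervals cover counting error only, since reads amplified without molecular identifiers can be copies of 1 molecule. The fitted log2 fold changes were 9.80 (SE 0.394), 9.80 (SE 0.436) and 11.03 (SE 0.551), and they depend on the prior count of the fit. Olfr1173 was named with this result known, so these values are a description. The log2 difference between Ago2 ADH and Ago2 null was 0.00 (SE 0.152).

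The near copy Olfr1168 had 26 reads in all, with at most 6 in any library, so few reads were counted on the copy. The nearest other receptor genes had few reads or none. Olfr1170, 50 kb before it, had 1 read in the 14 libraries, and Olfr1176, Olfr1178 and Olfr1179 on the other side had 3, 0 and 0. Olfr1167, 125 kb away, had 2 to 9 reads in the control libraries and 4 to 69 in the mutant libraries, and the mutant reads were spread unevenly, with 69 in 1 Dicer KO library and 10 and 18 in the others. It was called in Dicer KO (log2 2.85), a call lost with the replicate block and without WT replicate 3. It was also lost without KO replicate 3, the library with 69 reads (log2 1.79, adjusted p = 0.0595, edgeR quasi-likelihood test). Of the 223 receptor genes counted in this chromosome 2 cluster (85330967 to 90401674), 25 (11.2%) had 10 or more reads.

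**Figure D2:**
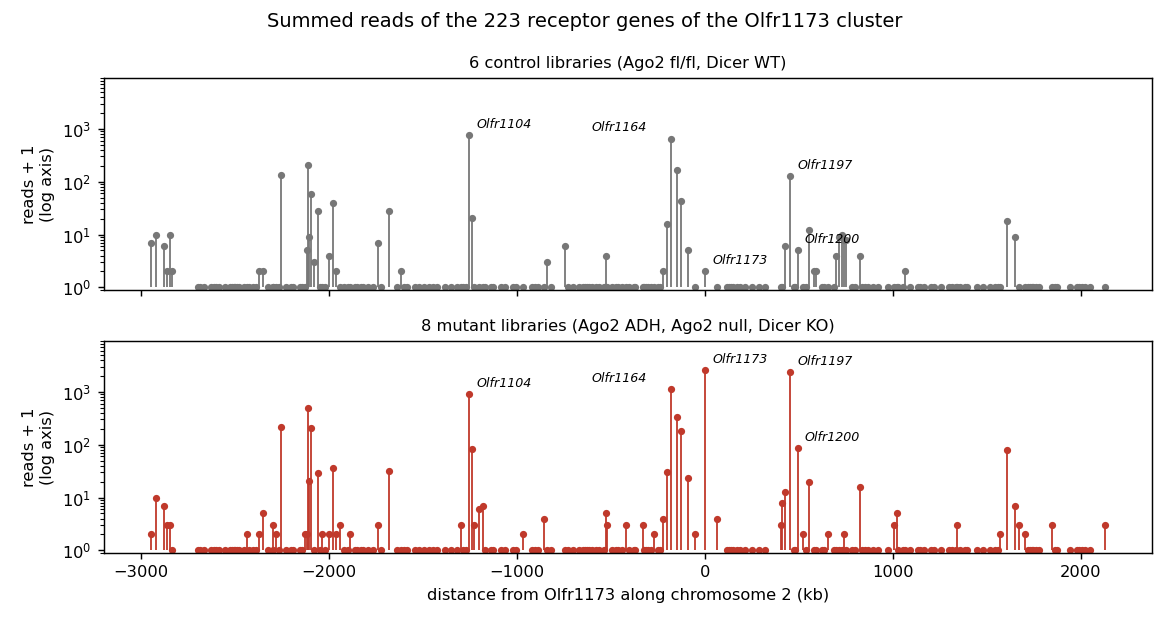
Reads plus 1 on a log axis for the 223 receptor genes of the chromosome 2 cluster, by distance from Olfr1173 in kb, summed over the 6 control libraries (grey, upper panel) and the 8 mutant libraries (red, lower panel); each stem is a gene. Olfr1173 stands at 1 read above and at 2547 below, Olfr1197 is high in the lower panel, and Olfr1104 and Olfr1164 have reads in both.

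To ask whether other receptor genes were switched on in the same way, a member was called switched on when its control libraries summed to 3 reads or fewer and every mutant library had 10 or more. In Ago2 ADH against Ago2 fl/fl this held for 1 of 210 members, Olfr1173 itself, and for 0.0698% of the 17190 genes with 10 or more reads. In Dicer KO against Dicer WT it again held for 1 member, Olfr1173, and for 0.0814% of all these genes. In Ago2 null against Ago2 fl/fl it held for 4 members, beside 0.145% of all genes. Olfr1173 was the only gene of the 17190 that met the definition in all 3 mutant groups. As it was singled out for this pattern, no test is attached to these counts.

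The other 3 members switched on in Ago2 null had far fewer reads. Olfr473 (chr7:107933522-107934454) had 26 and 23 reads in Ago2 null, 1, 0 and 0 in Ago2 fl/fl and 7, 4 and 5 in Ago2 ADH. Olfr476 (chr7:107967399-107968331) had 25 and 17 reads in Ago2 null, none in Ago2 fl/fl and 14, 3 and 7 in Ago2 ADH. Both belong to receptor family 204 of the same chromosome 7 cluster, and both were above their controls in every Ago2 mutant library.

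Olfr1466 (chr19:13341760-13344328) had 15 and 17 reads in Ago2 null, none in Ago2 fl/fl, 8, 3 and 5 in Ago2 ADH, none in Dicer WT and 7, 4 and 7 in Dicer KO, so it was seen in all 8 mutant libraries and in no control. Ratios in Ago2 null were 76.3 for Olfr473 (interval 13.1 to 3070), at least 21.8-fold for Olfr476 and at least 16.6-fold for Olfr1466. The null group has 2 libraries, which makes the definition easier to meet than in a group of 3. Without null replicate 2, 9 members met it, and with 20 reads required in place of 10, 2 did, Olfr1173 and Olfr473.

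Olfr1200 came close to the definition in Dicer KO alone. It had 36, 19 and 28 reads in Dicer KO, 0, 1 and 3 in Dicer WT, and 1 read in all 8 Ago2 libraries together. Its log2 fold change in Dicer KO was 4.6 (SE 0.724, adjusted p = 3.9e-05, edgeR quasi-likelihood test). Olfr1428 had 12, 8 and 13 reads in Dicer KO against 1, 0 and 0 in Dicer WT, but 3, 21 and 12 reads in the Ago2 fl/fl controls. It was thus present in the controls of the other set, where Olfr1173 had 0, 1 and 0 reads. The vomeronasal gene Vmn1r132, picked after its values were seen, had 694 to 1396 reads in the 8 Ago2 libraries and 0 in the 6 Dicer libraries. In contrasts between the Ago2 and Dicer sets, the targeted gene cannot be told apart from any other difference between the sets. For Olfr1428, the effect in Ago2 ADH less that in Dicer KO had the lowest p among the 61 members tested. It did not pass the limit (log2 -4.61, SE 1.40, adjusted p = 0.0417, edgeR interaction).

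The reverse pattern, controls of 10 or more reads each and mutants summing to 3 or fewer, was met by Olfr1299 in Ago2 null (chr2:111661453-111665166), beside 0.0582% of all genes. It had 44, 54 and 59 reads in Ago2 fl/fl, 0 and 2 in Ago2 null, 1, 3 and 3 in Ago2 ADH, 84, 104 and 88 in Dicer WT and 1, 2 and 1 in Dicer KO. The lowest control library thus held more than 10 times the reads of any mutant library. Its span overlaps exons annotated to Gm44840, so the assignment of its reads is uncertain. No member was switched off by this definition in Ago2 ADH or Dicer KO, where 0.0291% and 0.0407% of all genes were.

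**Figure D3:**
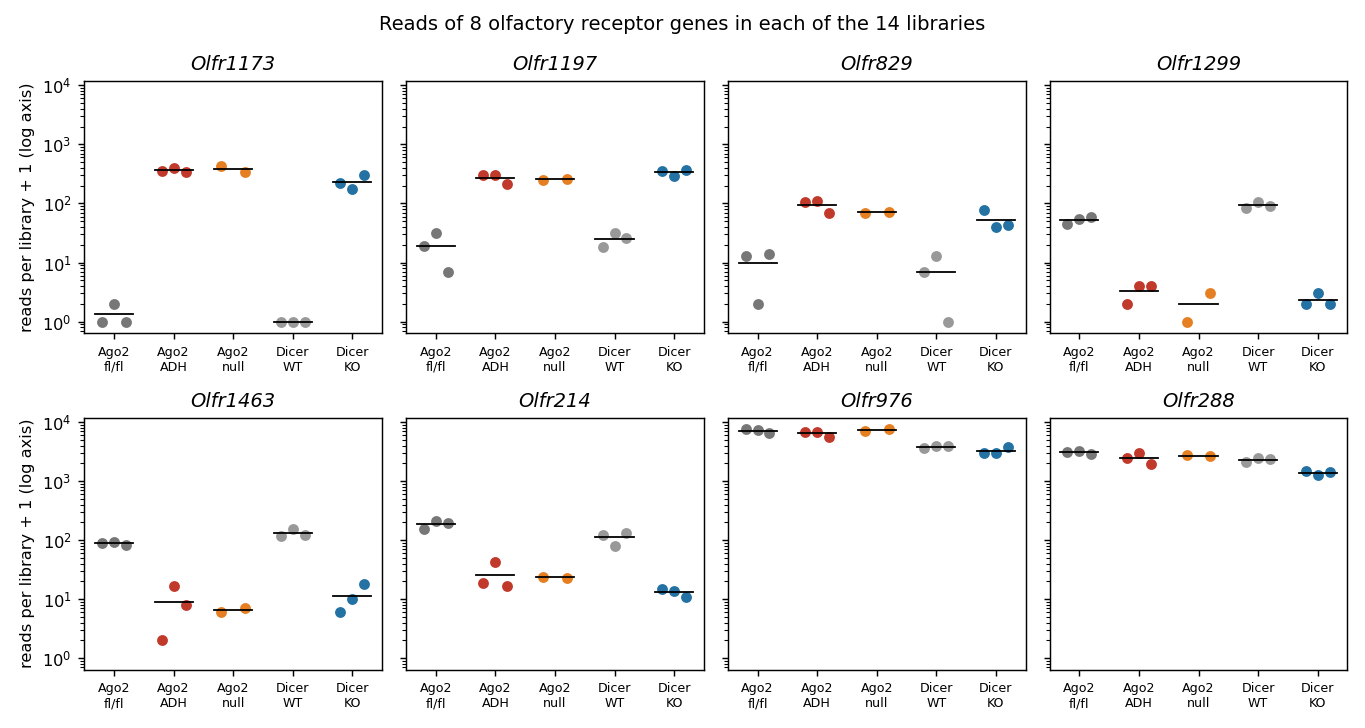
Reads per library plus 1 (log axis) of 8 members in each of the 14 libraries, with points for libraries and black lines for group means. Olfr1173, Olfr1197 and Olfr829 are high in the mutant groups, Olfr1299, Olfr1463 and Olfr214 are high in the controls, and Olfr976 and Olfr288 have 1260 reads or more in every library.

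Receptor genes that changed were mixed in direction, and the share that changed was close to that of all transcripts. In Ago2 ADH against Ago2 fl/fl, 56 members passed the filter on low counts and 154 did not. At a false discovery rate (FDR) of 1%, 17 of the 56 were up-regulated and 4 were down-regulated, 37.5% in all, where 40.7% of the 18835 transcripts tested were called. The up-regulated share of all transcripts was 20.5% and the down-regulated share 20.1%. A low gene passes the filter only through the group in which it is high, so the up-regulated members cannot be read as a share of all members. Among the 33 members with 10 or more reads in each Ago2 fl/fl library, 7 went up and 4 went down.

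In Ago2 null, against the same Ago2 fl/fl controls, 59 members were tested, 15 were up-regulated and 6 down-regulated, beside 37.2% of all transcripts called. The up-regulated and down-regulated shares of all transcripts were 18.1% and 19.1%. Among the 33 members tested that had 10 or more reads in each Ago2 fl/fl library, 6 went up and 6 went down. In Dicer KO against Dicer WT, 51 were tested, 11 were up-regulated and 8 down-regulated (37.3%), beside 34.5% of all transcripts called. Here the shares over all transcripts were 16.7% up-regulated and 17.8% down-regulated. Of the 34 members with 10 or more reads in each Dicer WT library, 4 were up-regulated and 8 down-regulated. In these sets the calls thus did not lean towards up-regulation in Ago2 null or Dicer KO, while in Ago2 ADH 7 went up and 4 went down. The limit on control reads keeps genes high in the controls and leaves out genes that rise from low counts. The balance of directions depends on it and is a description.

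No member was called between Ago2 ADH and Ago2 null, a comparison of 3 libraries with 2. Of 66 members tested with the edgeR quasi-likelihood test none passed an FDR of 1%, the lowest adjusted p was 0.256, 2 had an unadjusted p under 0.05, and DESeq2 also called none. Those 2 were Olfr513 (log2 0.91, SE 0.283) and Olfr473 (log2 -2.08, SE 0.647), whose libraries did not overlap between the groups, so a difference is not excluded by the missing call. Of all 19306 transcripts, 0.119% were called in this comparison. In bulk oocyte pools, fewer cells of a kind and less RNA per cell cannot be told apart.

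A set of 10 members was called in the same direction in Ago2 ADH and in Dicer KO, 2 comparisons that share no library. They made up 10 of the 21 calls in Ago2 ADH and 10 of the 19 in Dicer KO, or 47.6% and 52.6%, and no member was called in opposite directions. Over all transcripts, 61.8% of the calls in Ago2 ADH and 73.8% of those in Dicer KO were shared in direction, and 1.25% of the transcripts called in both went opposite ways, so the shares among receptor genes lay below those of all transcripts, which was not tested. Olfr1173, Olfr1197, Olfr829, Olfr1340, Olfr916 and Olfr461 were up-regulated in both, and Olfr1299, Olfr1463, Olfr214 and Olfr878 were down-regulated in both. The test of the difference between the effects called 0 of 61 members at an FDR of 1% (edgeR interaction, 3.55% of all transcripts called), and 5 had an unadjusted p under 0.05. A miss in this test does not show that the effects were equal.

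**Figure D4:**
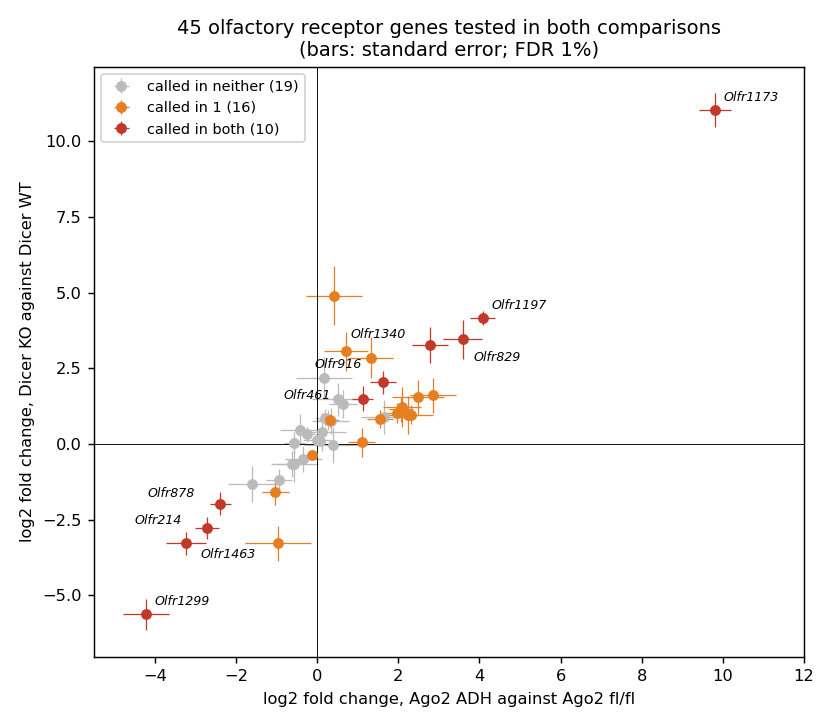
Log2 fold change in Ago2 ADH against Ago2 fl/fl (horizontal axis) and in Dicer KO against Dicer WT (vertical axis) for the 45 members tested in both, with standard errors as bars. The 10 members called in both (red, FDR 1%) lie at the upper right and lower left, with Olfr1173 alone at 9.80 and 11.03.

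Among the 21 members called in Ago2 ADH, Olfr1197 had the largest rise after Olfr1173. It had 18, 31 and 6 reads in Ago2 fl/fl and 302, 301 and 210 in Ago2 ADH, and 250 and 258 in Ago2 null. In Dicer WT it had 17, 31 and 25 reads, and in Dicer KO 355, 293 and 363. Unlike Olfr1173 it was detected in every control library. Its log2 fold change was 4.08 in Ago2 ADH (SE 0.306, adjusted p = 2.07e-09), 3.89 in Ago2 null (SE 0.358) and 4.15 in Dicer KO (SE 0.229, adjusted p = 2.79e-11, edgeR quasi-likelihood test). Its near copy Olfr1196 had at most 4 reads in any library.

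Olfr829 (chr9:18856627-18857592), whose words of 36 bases were all its own, had 12, 1 and 13 reads in Ago2 fl/fl, 106, 107 and 68 in Ago2 ADH and 69 and 72 in Ago2 null. Its counts were 6, 12 and 0 in Dicer WT and 76, 39 and 42 in Dicer KO. The mutant libraries lay above the controls throughout, with log2 fold changes of 3.59 (SE 0.478) in Ago2 ADH, 3.08 (SE 0.595) in Ago2 null and 3.46 (SE 0.643) in Dicer KO. Olfr1340 (chr4:118725722-118727196), also unique in its words, went from 7, 7 and 19 reads in Ago2 fl/fl to 61, 84 and 57 in Ago2 ADH and from 10, 2 and 2 in Dicer WT to 27, 39 and 43 in Dicer KO. Its log2 fold changes were 2.78 (SE 0.451) and 3.27 (SE 0.601).

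Olfr916 had 26, 29 and 27 reads in Ago2 fl/fl, 67, 78 and 74 in Ago2 ADH, 17, 18 and 16 in Dicer WT and 55, 43 and 68 in Dicer KO, with log2 fold changes of 1.63 (SE 0.325) and 2.04 (SE 0.380). Its neighbour Olfr915 moved with it in Ago2 ADH (33, 25 and 56 reads in Ago2 fl/fl, 123, 163 and 111 in Ago2 ADH; log2 1.97, SE 0.311) but was not called in Dicer KO, where it had 60, 53 and 59 reads against 29, 44 and 36. The span of each overlaps exons annotated to Gm49385, so the assignment of some of their reads is uncertain. Of the 36-base words of their coding sequences, 92.2% (Olfr916) and 86.4% (Olfr915) occurred in no other annotated transcript. Olfr461 rose less, from 95, 79 and 55 reads in Ago2 fl/fl to 194, 100 and 134 in Ago2 ADH (log2 1.12, SE 0.267), and its call was lost in 3 of the alternatives tried for Ago2 ADH. In Dicer KO it had 46, 75 and 167 reads against 68, 34 and 25 in Dicer WT (log2 1.49, SE 0.417), so the groups overlapped, and the call was lost in 5 of 12 alternatives, among them the replicate block (log2 1.46, edgeR adjusted p = 0.0258) and the fit without KO replicate 3 (log2 0.96, adjusted p = 0.0897).

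Olfr613 (chr7:103550368-103555504), a class I receptor of a fish-like family 60.0% identical to its nearest relative, had 108, 142 and 176 reads in Ago2 fl/fl, 685, 471 and 660 in Ago2 ADH and 677 and 695 in Ago2 null. In Dicer WT it had 433, 228 and 135 reads and in Dicer KO 290, 343 and 620, so the Dicer groups overlapped. The log2 fold change was 2.31 in Ago2 ADH (SE 0.210, adjusted p = 3.12e-08), 2.36 in Ago2 null (SE 0.189) and 0.97 in Dicer KO (SE 0.303, adjusted p = 0.0132, edgeR quasi-likelihood test), and the last did not pass an FDR of 1%. Set against each other, the effects in Ago2 ADH and in Dicer KO gave an adjusted p of 0.069 in the edgeR interaction test, and of 0.00496 without the filter on low counts.

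Olfr1463, Olfr214, Olfr878 and Olfr1299 fell in every mutant group. Olfr1463 (chr19:13234252-13235184) had 87, 92 and 82 reads in Ago2 fl/fl, 1, 16 and 7 in Ago2 ADH and 5 and 6 in Ago2 null. It had 117, 151 and 122 reads in Dicer WT and 5, 9 and 17 in Dicer KO. Every control library thus stood above every mutant library, and the log2 fold changes were -3.23 (SE 0.494), -3.86 (SE 0.463) and -3.29 (SE 0.371).

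Olfr214 (chr6:116556427-116557389) had 156, 211 and 191 reads in Ago2 fl/fl, 18, 41 and 16 in Ago2 ADH, 23 and 22 in Ago2 null, 121, 78 and 131 in Dicer WT and 14, 13 and 10 in Dicer KO. Its log2 fold changes were -2.71 (SE 0.299), -2.95 (SE 0.299) and -2.77 (SE 0.366). Olfr878 (chr9:37918548-37919612) had 330, 293 and 243 reads in Ago2 fl/fl, 35, 80 and 30 in Ago2 ADH, 93 and 71 in Ago2 null, 92, 97 and 105 in Dicer WT and 18, 8 and 33 in Dicer KO. The log2 fold changes were -2.39 (SE 0.255), -1.72 (SE 0.209) and -1.98 (SE 0.375). Olfr1299, described above for its loss in Ago2 null, had log2 fold changes of -4.22 (SE 0.570), -5.46 (SE 0.806) and -5.63 (SE 0.518).

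Most other called members were called in Ago2 groups alone or in Dicer KO alone, and the test of the difference between these effects called none. Olfr667 was called down in Ago2 null (log2 -1.73, SE 0.409) and in Dicer KO (log2 -1.60, SE 0.411), but not in Ago2 ADH (log2 -1.03, SE 0.334). Olfr513 had 24, 34 and 30 reads in Ago2 fl/fl, 100, 112 and 107 in Ago2 ADH, 61 and 60 in Ago2 null, 22, 22 and 29 in Dicer WT and 26, 39 and 62 in Dicer KO. It passed an FDR of 1% only in Ago2 ADH (log2 2.07, SE 0.297). In Ago2 null it was also higher, without overlap with the controls, but was not called (log2 1.13, SE 0.391). Its mean was 1.33 CPM in Dicer KO and 0.603 in Dicer WT, where it was not called either. Olfr1423 (log2 2.86, SE 0.564) and Olfr847 (log2 1.55, SE 0.322) were up-regulated in Ago2 ADH. In Dicer KO, Olfr293 rose from 3, 4 and 3 reads to 11, 18 and 40 (log2 3.06, SE 0.635), while it had 9 to 16 reads in the Ago2 fl/fl libraries. Olfr654, a class I receptor, fell from 41, 36 and 40 reads in Dicer WT to 4, 4 and 1 in Dicer KO (log2 -3.28, SE 0.582). In all, 34 members were called in at least 1 of the 3 mutant comparisons and 141 members were tested in none of them.

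The 12 members with the most reads held most of the receptor signal, and the top of the list did not change like Olfr1173. Olfr976 (chr9:39954257-39961044) alone made up 49.9% of all 153334 reads of members and, with Olfr288, 71.4%. Olfr976 had 6594 to 7517 reads in Ago2 fl/fl, 5667 to 6874 in Ago2 ADH, 6971 and 7557 in Ago2 null, 3660 to 3939 in Dicer WT and 2937 to 3726 in Dicer KO. After scaling to library size, its log2 fold changes were 0.06 (SE 0.0508), 0.12 (SE 0.0664) and 0.10 (SE 0.0652), none of them called. Olfr288 had 1260 to 3272 reads per library and was called in Dicer KO only, with a log2 fold change of -0.37 (SE 0.0818, adjusted p = 0.00113, edgeR quasi-likelihood test). None of the 36-base words of Olfr288 was its own, because the gene Gm44579 spans it and Olfr287, so its reads cannot be assigned to the receptor alone.

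Of the next members by reads, Olfr206, Olfr701 and Olfr1104 had 1901, 1845 and 1664 reads in all and were not called in any comparison. Their log2 fold changes ran from -0.26 (Olfr1104) to 0.27 (Olfr701) in Ago2 ADH and from 0.32 (Olfr1104) to 0.87 (Olfr206) in Dicer KO. Olfr1164, in the cluster of Olfr1173, had 83 to 106 reads in Dicer WT and 120 to 134 in Dicer KO (log2 0.78, SE 0.222), a call lost on leaving out any single Dicer library. These were counts of reads per gene and were not divided by length, so they do not order the genes by expression.

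More receptor genes had reads in the mutants. A read was found for 146 to 162 of the 1108 genes in Ago2 fl/fl libraries, 195 to 199 in Ago2 ADH, 213 to 233 in Ago2 null, 144 to 165 in Dicer WT and 167 to 204 in Dicer KO, so mutants and controls did not overlap. As a share of the mean of the controls this was 27.0% more receptor genes in Ago2 ADH, 43.3% in Ago2 null and 18.6% in Dicer KO. For the other genes of the table the rise was 2.42%, 2.86% and 1.16%, with 16127 to 16192 detected in Ago2 fl/fl, 16458 to 16620 in Ago2 ADH, 16611 to 16621 in Ago2 null, 15968 to 16045 in Dicer WT and 16068 to 16368 in Dicer KO. Most other genes already had a read in the controls, whereas most receptor genes had none. The percentages thus start from unlike shares and do not show that receptor genes gained reads more readily than other genes. Reads outside annotated transcripts moved the same way, at 12.3 to 12.7 per 100 transcript counts in Ago2 fl/fl, 16.3 to 19.7 in Ago2 ADH, 18.0 to 18.6 in Ago2 null, 12.7 to 16.4 in Dicer WT and 17.5 to 21.3 in Dicer KO. Their part in the number of receptor genes with a read was not tested.

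Without Olfr976 and Olfr288, receptor reads summed to 47.1 to 51.9 CPM in Ago2 fl/fl, 69.6 to 88.3 in Ago2 ADH, 79.1 and 79.2 in Ago2 null, 53.8 to 64.7 in Dicer WT and 81.6 to 112 in Dicer KO. Without the 5 members with the most reads, which also takes out Olfr613, Olfr1173 and Olfr1197, the sums were 44.2 to 48.5, 48.3 to 60.4, 54.5 to 55, 47.6 to 53 and 53.8 to 75.8 CPM in the same order. Most of the higher receptor sum in the Ago2 mutants was thus in those 3 genes, and without them the lowest Ago2 ADH library lay below the highest Ago2 fl/fl library.

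Members came from both receptor classes and from 35 of 50 clusters, and 15 clusters held none. By the first MOR family number among their names, class I receptors, the older class shared with fish, gave 21 members of 124 genes (16.9%). Class II receptors gave 184 of 962 (19.1%). The class I count includes Olfr1105 of the chromosome 2 cluster, whose names MOR0-6P and MOR172-7 give different families, so these class counts are approximate. The largest groups of members were in the chromosome 2 cluster of Olfr1173 (25 of 223 genes), 2 clusters on chromosome 7 (23 of 67 and 20 of 124), 1 on chromosome 9 (22 of 98) and 1 on chromosome 19 (21 of 61). The share of members ran from 11.2% in the first to 34.4% on chromosome 19. The 34 called members lay on 8 chromosomes in 14 clusters, and the 210 members on 16 chromosomes in 35 clusters.

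Most members were seen at very low depth. The median member had 38 reads over the 14 libraries, 151 had under 100, and 56 had a read in every library. In 24 members, 50% or more of the reads came from a single library. At the limit itself, 13 genes had 10 reads and 13 had 9. Olfr107, Olfr109 and Olfr133, just inside, had at most 7 reads in any library, and Olfr1215, Olfr1420 and Olfr1502, just outside, had at most 5. At these counts a difference between groups was not detectable.

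Genes that olfactory neurons use with these receptors moved in both directions. Of 27 genes for olfactory signalling and receptor choice, 25 had 10 or more reads and 22 were tested in Ago2 ADH, where 6 rose and 4 fell with a median log2 fold change of 0.06, beside 20.5% of all transcripts up-regulated, 20.1% down-regulated and a median of 0.007. In Ago2 null 5 of 22 rose and 4 fell, and in Dicer KO 5 of 21 rose and 4 fell, so the counts of this list stood near those of all transcripts. Gnal and Adcy3, the G protein and cyclase of the odorant signal, had 47 to 121 and 160 to 482 reads per library, so they were present in control and mutant oocytes, and were not called. The G protein subunit Gnb1 was not called either.

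Pde1c, a phosphodiesterase of olfactory cilia, rose from 692 to 806 reads in Ago2 fl/fl to 1687 to 2312 in Ago2 ADH (log2 1.67, SE 0.0814) and by log2 1.35 in Dicer KO (SE 0.0979). The channel subunits went different ways: Cngb1 rose (log2 1.61, SE 0.282 in Ago2 ADH and 1.24, SE 0.334 in Dicer KO) and Cnga4 fell (log2 -1.18, SE 0.182 and -2.10, SE 0.290). Cnga2 rose in Ago2 ADH (log2 0.82, SE 0.239) and was not called in Dicer KO.

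Lhx2 and Emx2, homeobox factors needed for receptor expression in the nose, fell in Ago2 ADH (log2 -1.38, SE 0.152 and -0.71, SE 0.188), and Ebf2, of the Olf/Ebf factors, fell more (log2 -2.95, SE 0.265). Its relative Ebf3 rose (log2 1.09, SE 0.153), as did Atf5, a factor of the receptor feedback signal (log2 1.34, SE 0.385), and Cbx5, a heterochromatin protein (log2 0.46, SE 0.0733). In Dicer KO Ebf2 fell (log2 -2.88, SE 0.353), Emx2 fell (log2 -1.16, SE 0.193) and Ebf3 rose (log2 1.76, SE 0.169), while Lhx2 was not called (log2 -0.59, SE 0.192, adjusted p = 0.0171, edgeR quasi-likelihood test).

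Few genes of other chemoreceptor families had enough reads to be tested, and low genes among them pass the filter only through the group in which they are high. Of 229 vomeronasal V1R genes 37 had 10 or more reads, and 4 of 9 tested rose and 1 fell in Ago2 ADH, where 20.5% of all transcripts rose and 20.1% fell. Of 122 V2R genes 53 had 10 or more reads, and 1 of 10 tested rose and 2 fell. Of 38 taste receptor genes 8 had 10 or more reads, and 3 of 5 tested rose. For trace amine receptors 6 of 15 genes had 10 or more reads and 1 was tested, and no formyl peptide receptor was tested. In Dicer KO, 4 of 7 V1R genes, 2 of 9 V2R genes and 1 of 4 taste receptor genes rose and none fell, beside 16.7% of all transcripts up-regulated and 17.8% down-regulated.

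Vmn1r65, a V1R gene picked after its values were seen, had 605 to 875 reads in Ago2 fl/fl, 9598 to 11830 in Ago2 ADH, 929 to 1449 in Dicer WT and 8288 to 12339 in Dicer KO. Tas1r2, the sweet taste receptor subunit, likewise picked afterwards, had 9 to 31 reads in Ago2 fl/fl, 239 to 402 in Ago2 ADH, 1 to 7 in Dicer WT and 106 to 141 in Dicer KO. Both had at least 1 read in every control library, which Olfr1173 did not. Tas1r2 had 1, 7 and 1 reads in Dicer WT, so in replicates 1 and 3 it lay under the detection limit of 3 counts.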

How the data were processed

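The authors made cDNA from lysed oocytes and sequenced it paired-end. They mapped the reads to mm10 and its refGene transcripts with TopHat (2.0.7 in the submitters' processing notes), allowing 100 alignments for a read. The paper lists different mismatch settings for reads of 36 and of 50 bases. Which libraries had which length is not given, and the part of read length in the results was not tested. Counting was by HTSeq 0.6.1 without regard to strand. The deposited values are raw counts per RefSeq transcript. Reads with several alignments stand in a separate tally and stayed out of library sizes and tests, as did reads outside transcripts. The 2 tallies came to 38.8 to 166 and 12.3 to 21.3 per 100 transcript counts, and 1 read may enter the first more than once.

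Of 26495 transcripts, 26081 were named through RefSeq and 113 through GENCODE, and 301 had no symbol. The transcript with the highest mean count stands for a gene. Class I receptors are MOR families up to 42, by the first MOR number among the names of a gene, and clusters end at gaps of 1 Mb. Words of 36 and 50 bases were compared with all GENCODE M21 transcripts (GRCm38), whose annotation also gave the sequences.

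Each comparison was fitted on its own libraries with edgeR 4.0.16 in R 4.3.3 (TMM, filterByExpr with minimum count 10 and minimum total count 15, quasi-likelihood test, Benjamini-Hochberg adjustment over all transcripts, FDR 1%). CPM are TMM-scaled over the 14 libraries. Scripts were tested on simulated data. Alternatives were DESeq2 1.42.0, RLE normalization, no filter, FDR 5%, 1 transcript per gene, all 5 groups in 1 fit, a replicate block and leaving out each library. Members and lists were chosen with earlier results of these data known. Named were Olfr1173, up to 20 called members by p, the 12 with the most reads, the switched ones, those at the limit of 10 reads, the 3 nearest receptor genes on each side of Olfr1173 and up to 10 called signalling genes. Replicate libraries differed by more than counting noise (chi-square per degree of freedom 6.35 to 14.3). Replicates are separate oocyte pools.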

Additional observations from a re-analysis of the deposited data

Results flagged for a closer look

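The tallies of reads that are not part of any transcript count were higher in the mutants. The tally of reads with several alignments per 100 transcript counts was 2.81 times as high in Ago2 ADH as in Ago2 fl/fl, 2.82 times in Ago2 null and 2.25 times in Dicer KO against Dicer WT (ratios of group means). It stood at 55.7 to 59.7 in Ago2 fl/fl, 158 to 166 in Ago2 ADH, 157 and 166 in Ago2 null, 38.8 to 53.6 in Dicer WT and 93.9 to 119 in Dicer KO, so the groups did not overlap. Reads outside annotated transcripts were 1.45, 1.46 and 1.3 times as high per 100 transcript counts in the same 3 comparisons. Olfactory receptor genes have many close copies, and reads that align to several of them enter the first of these tallies and not the counts of the genes. How many of those reads come from receptor genes was not tested. Up to 100 alignments were allowed for a read, so 1 read may enter the first tally more than once. Its ratios thus need not be ratios of read numbers.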

How the results depend on the processing

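Counts of called members stayed within 1.5 times in every alternative for Ago2 ADH and Ago2 null, and for Dicer KO except at an FDR of 5%, where 30 were called in place of 19. Between Ago2 ADH and Ago2 null no alternative called a member. The interaction of Ago2 ADH with Dicer KO gave 1 call without the filter, Olfr613. With 50 reads as the limit, 89 genes were members. With control sums of up to 10 reads, 3 members were switched on in Ago2 ADH (Olfr1173, Olfr76 and Olfr1257) and 3 in Dicer KO (Olfr1173, Olfr293 and Olfr1200). With 5 reads per mutant library, 12 were switched on in Ago2 null and 2 in Dicer KO, and with 20 reads 2 in Ago2 null. Leaving out 1 library at a time gave 18 to 22 calls in Ago2 ADH, 15 to 21 in Ago2 null and 14 to 20 in Dicer KO, and 1 to 3, 4 to 9 and 1 to 3 members switched on. The value of 3 in Ago2 ADH came without fl/fl replicate 2, the 9 in Ago2 null without null replicate 2, and in Dicer KO the value of 3 without WT replicate 3 and of 2 without WT replicate 2 or KO replicate 2. The log2 fold change of Olfr1173 then ran from 9.33 to 11.57 in Ago2 ADH and from 9.33 to 11.62 in Ago2 null, with the top values without fl/fl replicate 2, the library with the single control read, and from 10.89 to 11.20 in Dicer KO. Of 679 alternative values of the named calls, 72 fell short of the limit, 59 of them on leaving out a library, and 0 changed sign. The replicate numbers did not pair the libraries (correlations of same-numbered deviations from -0.0866 to 0.0438). With the replicate block, 21, 19 and 15 members were called in place of 21, 21 and 19, and Olfr1173 stood at 9.80, 9.39 and 11.04. Depth limits all members under 100 reads.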
